A study of Capsicum chinense and Capsicum frutescens with 8 samples.

Results

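Fruit was compared with flower buds in each of 2 peppers, by the reads listed for each conserved miRNA family. The members are the 67 families, of 1150 listed in any of the 4 libraries and 1336 in the whole series, that had 50 or more reads over the 4 libraries. A family here is all entries that carry the same miR number. The tested groups were fruit of Bhut jolokia (Capsicum chinense) and fruit of accession 4 of C. frutescens, each a pool of stages from 5 to 60 days after flower opening, breaker and mature fruit included. The groups they are set against were flower buds of mixed size and age from the same genotypes. All plants were grown in a glass house from 1 genotype per species, with no treatment named. RNA of 3 biological replicates was pooled before sequencing, so each group is 1 library, and differences between fruit stages cannot be seen. The study chose these genotypes for contrasting fruit, and the comparison asks which families stand apart between the same organs in both.

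Plant miRNAs are short RNAs, mostly of about the length that a Dicer-like enzyme cuts from a hairpin precursor, and they guide Argonaute proteins to complementary mRNAs. miR156 targets SPL transcription factors, which act in phase change and in the growth of floral organs. miR319 targets TCP genes of petal and leaf growth, miR393 targets auxin receptors, and miR398 and miR408 target copper proteins.

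The listed conserved reads numbered 613569 in C. chinense fruit and 1079538 in its flower, and 937585 in C. frutescens fruit and 412734 in its flower. The 67 families held 99.8% to 99.9% of them. A library with 0 reads of a family was given a floor of 3 reads, and no ratio was formed where both libraries had 3 reads or fewer. This left 58 families with a ratio in C. chinense, 66 in C. frutescens and 57 in both. Intervals on ratios are 95% counting intervals of these libraries and say nothing of variation between plants. The C. frutescens fruit library stood apart, with 1008 families listed against 302 in C. frutescens flower, and against 315 in C. chinense fruit. Every ratio for C. frutescens rests on that library, and its part in them was not tested.

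The sequences printed for the families that stood the same way in both species are shown for 1 entry each, as entries that recur across the libraries. A family also holds other entries, some of the opposite arm or of an unlike sequence, described with the family below. Each entry prints 1 sequence per library, often with extra bases at an end. Its reads may include other sequences, and how reads were assigned to entries is not given in the sources used here. Capitals mark the longest run that the libraries share.
bgy-miR156 in C. chinense fruit: gauguugUUGACAGAAGAUAGAGAGCACa
bgy-miR156 in C. chinense flower: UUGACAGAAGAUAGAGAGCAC
bgy-miR156 in C. frutescens fruit: UUGACAGAAGAUAGAGAGCACu
bgy-miR156 in C. frutescens flower: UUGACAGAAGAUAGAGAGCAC
gma-miR393c-3p in C. chinense fruit: auCAUGCUAUCCCUUUGGACU
gma-miR393c-3p in C. chinense flower: auCAUGCUAUCCCUUUGGACU
gma-miR393c-3p in C. frutescens fruit: auugauCAUGCUAUCCCUUUGGACU
gma-miR393c-3p in C. frutescens flower: CAUGCUAUCCCUUUGGACUccucc
ath-miR170-5p in C. chinense fruit: UAUUGGCCUGGUUCACUCAGA
ath-miR170-5p in C. chinense flower: UAUUGGCCUGGUUCACUCAGA
ath-miR170-5p in C. frutescens fruit: UAUUGGCCUGGUUCACUCAGAaa
ath-miR170-5p in C. frutescens flower: UAUUGGCCUGGUUCACUCAGA
nta-miR1446 in C. chinense fruit: uucUGAACUCUCUCCCUCAAUGGCU
nta-miR1446 in C. frutescens fruit: UGAACUCUCUCCCUCAAUGGCUgcu
nta-miR1446 in C. frutescens flower: UGAACUCUCUCCCUCAAUGGCUgcu
gma-miR398c in C. chinense fruit: aUGUGUUCUCAGGUCGCCCCUG
gma-miR398c in C. chinense flower: UGUGUUCUCAGGUCGCCCCUG
gma-miR398c in C. frutescens fruit: acaUGUGUUCUCAGGUCGCCCCUG
gma-miR398c in C. frutescens flower: aUGUGUUCUCAGGUCGCCCCUGuc
ppt-miR319d-3p in C. chinense fruit: CUUGGACUGAAGGGAGCUCCC
ppt-miR319d-3p in C. chinense flower: CUUGGACUGAAGGGAGCUCCCuc
ppt-miR319d-3p in C. frutescens fruit: aCUUGGACUGAAGGGAGCUCCCuc
ppt-miR319d-3p in C. frutescens flower: CUUGGACUGAAGGGAGCUCCCucu
The run shared by the 4 libraries was 21 nt for the entries of miR156, miR170, miR398 and miR319, and 19 nt for that of miR393. The nta-miR1446 entry was not listed in C. chinense flower, where the 1 read of the family stood under ptc-miR1446e.

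Most listed reads belonged to few families, and their balance between fruit and flower differed between the species. miR166, a regulator of HD-ZIP III genes of organ polarity and meristems, took 90.6% of the reads in C. chinense fruit and 93.9% in C. chinense flower. In C. frutescens it took 60.5% in fruit and 42.5% in flower. The fruit-to-flower ratio of its share was therefore 0.965 in C. chinense (interval 0.962 to 0.968) and 1.42 in C. frutescens (1.42 to 1.43). Since shares sum to a whole, this family shifts all others: leaving it out of the total lowers every other log2 ratio by 0.62 in C. chinense and raises it by 0.54 in C. frutescens. All ratios below are of shares with miR166 in the total unless stated.

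miR482, which targets NBS-LRR resistance genes, took 6.16% in C. chinense fruit and 4.13% in its flower, but 13.6% in C. frutescens fruit and 20.7% in its flower. Without miR166 in the total its fruit and flower shares lay close together within each species, with a log2 ratio of -0.04 for C. chinense and of -0.06 for C. frutescens. miR3711, listed under the spruce entry pab-miR3711, had 4078 reads in C. frutescens fruit and 102023 in C. frutescens flower, where it was 24.7% of all reads. It had 1 read each in C. chinense fruit and flower, so no ratio was formed there. miR894 had 6112 reads in C. frutescens fruit, 20562 in its flower and 1 read in each C. chinense library.

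miR396, which targets growth-regulating factors, miR162, a regulator of DCL1, which cuts miRNAs from their precursors, and miR159, which targets GAMYB genes, set C. frutescens fruit apart. The share of miR396 was 4.76% in C. frutescens fruit and 0.117% in its flower, a ratio of 40.8 (interval 37.3 to 44.7), against 0.309% in C. chinense fruit and 0.291% in its flower, a ratio of 1.06. miR162 had 26061 reads in C. frutescens fruit and 125 in its flower, but 2868 in C. chinense fruit and 6945 in its flower. miR159 had 23119 reads in C. frutescens fruit and 225 in its flower, and 105 and 106 reads in C. chinense fruit and flower. These 3 families thus had a fruit excess of over 40-fold in C. frutescens and a ratio below 2 in C. chinense. The sums cover both arms of the hairpin. Entries named for the 3p arm of miR396 had 14497 reads in C. frutescens fruit and 4 in its flower. Entries named for the 5p arm had 10016 and 15 reads there for miR162, and 3525 and 12 for miR159. The same entries had 28 and 17, 43 and 52, and 42 and 46 reads in C. chinense fruit and flower.

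**Figure D1:**
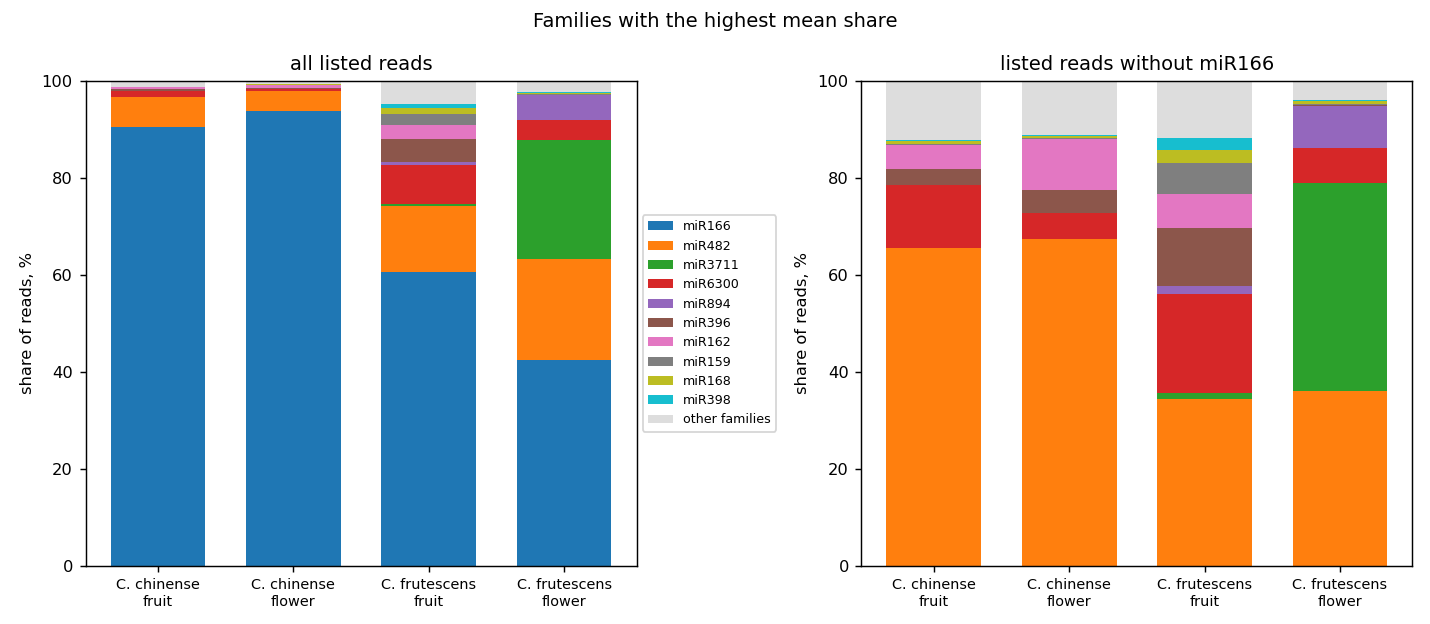
Stacked bars of the share of listed reads (%) in fruit and flower of each species, for the 10 families with the highest mean share over the 4 libraries, with miR166 in the total (left) and without it (right). miR166 takes 90.6% and 93.9% in C. chinense fruit and flower, and miR3711 fills 24.7% of C. frutescens flower.

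The same direction in both species was about as frequent as the opposite one. Of the 57 families with a ratio in both, 28 (49.1%) had the same sign and 29 the opposite sign. Taken one species at a time, 35 of 58 families (60.3%) were higher in fruit in C. chinense and 46 of 66 (69.7%) in C. frutescens, with median log2 ratios of 0.58 and 1.37. At 2-fold or more, 19 of 58 (32.8%) were higher and 9 (15.5%) lower in C. chinense fruit, and 36 of 66 (54.5%) were higher and 13 (19.7%) lower in C. frutescens fruit. At 4-fold or more, 11 (19.0%) were higher and 4 (6.9%) lower in C. chinense fruit, and 29 (43.9%) higher and 9 (13.6%) lower in C. frutescens fruit. In both species at once, 10 families (17.5%) were at 2-fold or more higher in fruit, 3 (5.26%) lower, and 4 (7.02%) stood in opposite directions. For all 13 same-way families the counting interval of the ratio excluded 1 in both species. The same ratios chose these families, so this describes their read numbers and adds no support.

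No family passed the test across libraries. The edgeR quasi-likelihood test of fruit against flower, fitted on all 8 libraries with tissue and species as terms, called 0 of 74 families (0.0%), with 8 at an unadjusted p under 0.05 and a lowest Benjamini-Hochberg adjusted p of 0.326. The test of limma-voom also called 0, and that of DESeq2 called 9 (12.2%). Of these 5 were higher in fruit (miR393, miR170, miR827, miR2916 and miR6023) and 4 lower (miR319, miR3630, miR6173 and miR5139). Not all of the 9 differed in both species. miR2916 had 1 read in C. chinense fruit and 2 in its flower, against 1816 and 1 in C. frutescens. miR5139 had 7 reads in C. chinense fruit and 7 in its flower, against 30 and 673 in C. frutescens. In edgeR 14 families passed without the C. chinense fruit library (10 higher and 4 lower in fruit, miR393, miR170, miR827 and miR3630 among them), and 1 each without the stem library of C. chinense or of C. frutescens (miR8036), without C. chinense flower (miR3711) and without C. frutescens fruit (miR6025). The 2-fold counts are therefore descriptions of these libraries.

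**Figure D2:**
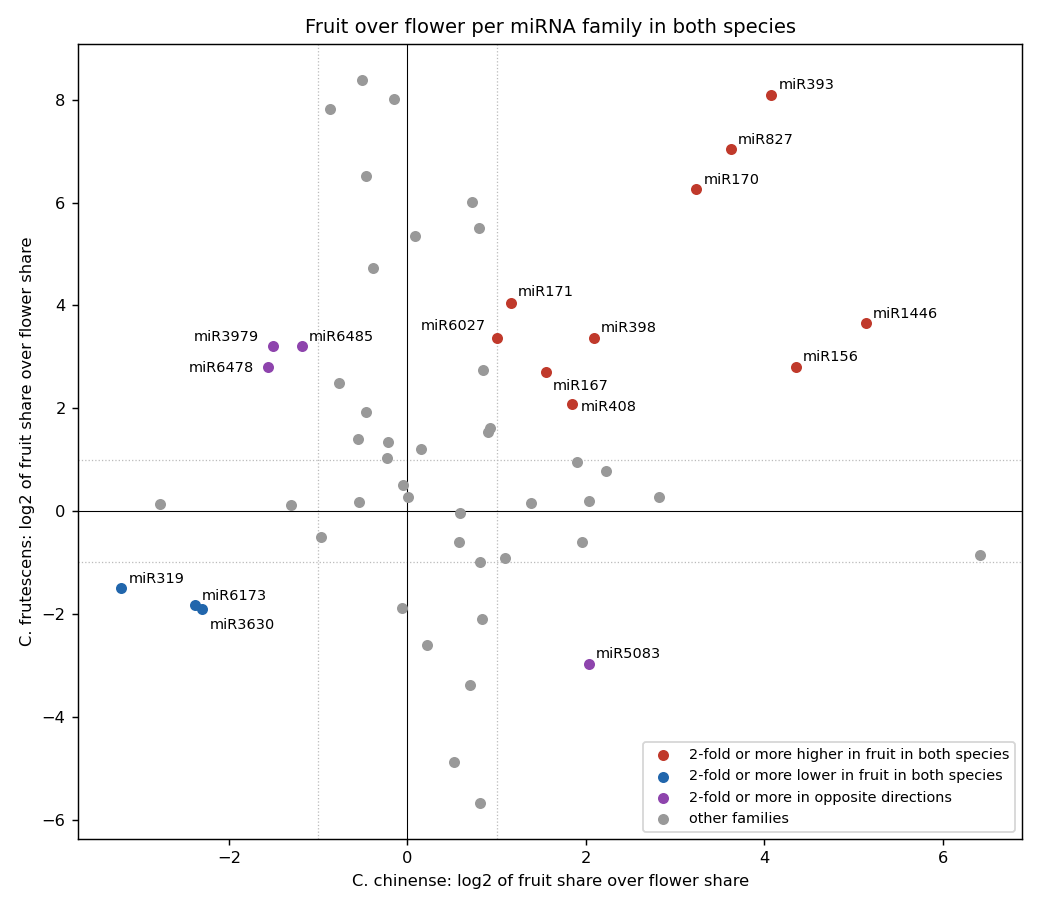
Each point is 1 of the 57 families with a ratio in both species, placed by the log2 of its fruit share over its flower share in C. chinense (horizontal) and C. frutescens (vertical); dotted lines mark 2-fold, and the point of miR397 uses the floor of 3 reads in C. chinense flower. Red points at upper right are the 10 families higher in both fruits, blue points at lower left the 3 lower in both, and the tall column near 0 on the horizontal axis holds families with a large ratio in C. frutescens alone.

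Among regulators of transcription factors and hormones, miR156 had its larger fruit ratio in C. chinense. It had 825 reads in C. chinense fruit and 71 in its flower, a ratio of 20.4 (interval 16.0 to 26.4), and 302 reads in C. frutescens fruit and 19 in its flower, a log2 ratio of 2.81 (ratio interval 4.40 to 11.8). Both fruit libraries lay above both flower libraries, with shares of 0.134% and 0.0322% in C. chinense and C. frutescens fruit, against 0.00658% and 0.00460% in the flowers. The fitted log2 difference was 2.92 (SE 1.42, edgeR, Benjamini-Hochberg adjusted p = 0.426), and it moved to 0.58 without C. chinense fruit.

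The entries behind miR156 were not the same in each library. The entry bgy-miR156, printed above, had 433 reads in C. chinense fruit and 2 in its flower, and 103 in C. frutescens fruit and 1 in its flower. In C. chinense fruit a further 317 reads stood under mtr-miR156h-3p, the opposite arm of the hairpin, which no other of the 4 libraries listed. In C. frutescens fruit 130 reads stood under cca-miR156b, against 1 in C. frutescens flower and none in either C. chinense library. The entry osa-miR156l-3p went the other way in C. chinense, with 0 reads in fruit and 39 in flower. The fruit excess of the family therefore rested on some of its entries.

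miR393 had the widest gap in C. frutescens among the same-way families. It had 96 reads in C. chinense fruit and 10 in its flower, a ratio of 16.9 (interval 8.80 to 36.3), and 8696 in C. frutescens fruit and 14 in its flower, a ratio of 273 (163 to 500). Its fitted log2 difference was 5.73 (SE 1.79, edgeR, Benjamini-Hochberg adjusted p = 0.326), and without C. frutescens fruit it moved to 3.18, with C. chinense fruit alone on the fruit side. Most of its reads came from gma-miR393c-3p, with 59 reads in C. chinense fruit and 4 in its flower, and 8277 in C. frutescens fruit and 12 in its flower. Entries named for the 3p arm held 67.7% of miR393 reads in C. chinense fruit and 90.0% in its flower, and 99.6% in C. frutescens fruit and 85.7% in its flower. The arm known to target auxin receptors is the 5p arm. Entries named for the 5p arm had 23 reads in C. chinense fruit and 0 in its flower, and 25 in C. frutescens fruit and 1 in its flower.

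miR170 and miR171 are related families that target GRAS transcription factors of the HAM group. miR170 had 75 reads in C. chinense fruit and 14 in its flower, a ratio of 9.43 (interval 5.28 to 18.1), and 3474 in C. frutescens fruit and 20 in its flower, a ratio of 76.5 (49.4 to 125). All of these reads stood under ath-miR170-5p, the arm opposite to the one known to target GRAS genes. The fitted log2 difference of miR170 was 4.00 (SE 1.44, edgeR, Benjamini-Hochberg adjusted p = 0.326), and 2.54 without C. frutescens fruit. miR171 had 192 reads in C. chinense fruit and 151 in its flower, a ratio of 2.24 (1.80 to 2.79), and 1503 in C. frutescens fruit and 40 in its flower, a ratio of 16.5 (12.1 to 23.2). In C. frutescens fruit 811 of the miR171 reads stood under cpa-miR171d, against 5 in C. frutescens flower. The sequence that cpa-miR171d printed in C. frutescens fruit held the reverse complement of the run it printed in the other libraries. Read in the same direction, the shared run was only 4 nt. Without miR166 in the total the log2 ratio of miR171 in C. chinense was 0.54, below 2-fold. Its fitted value of 1.51 was 0.97 without C. frutescens fruit and 0.66 without C. frutescens flower.

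miR167, which targets the auxin response factors ARF6 and ARF8, had 70 reads in C. chinense fruit and 42 in its flower, a ratio of 2.93, and 282 in C. frutescens fruit and 19 in its flower, a ratio of 6.53. Nearly all the excess lay in bna-miR167b, with 64 reads in C. chinense fruit and 9 in its flower, and 248 in C. frutescens fruit and none in its flower. The 3p entry stu-miR167c-3p lay the other way, with 1 read in C. chinense fruit and 9 in its flower, and 6 reads in C. frutescens fruit and 12 in its flower. Because bna-miR167b prints a sequence of 25 nt in both fruits, a count of entries of 18 to 24 nt alone turned the family to -2.60 and -1.98 on the log2 scale in C. chinense and C. frutescens.

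Of the copper-responsive families, miR398 and miR408 had fruit ratios above 2 in both species. miR398, which targets copper/zinc superoxide dismutases, had 104 reads in C. chinense fruit and 43 in its flower, a ratio of 4.26 (interval 2.96 to 6.22), and a share of 0.992% in C. frutescens fruit and 0.0957% in its flower, a ratio of 10.4 (9.37 to 11.5). miR408, which targets plantacyanin and laccase genes, had 137 reads in C. chinense fruit and 67 in its flower, a ratio of 3.60 (2.67 to 4.89), and 741 in C. frutescens fruit and 77 in its flower, a ratio of 4.24 (3.35 to 5.43). miR397, which targets laccases, had 7 reads in C. chinense fruit and 0 in its flower, at least 4.11-fold higher against a floor of 3 reads per library, and 83 in C. frutescens fruit and 32 in its flower, a ratio of 1.14 (0.751 to 1.77) that turned to a log2 ratio of -0.96 with TMM. All 3 measured copper families, of 4 listed, were thus at 2-fold or more higher in C. chinense fruit, and in C. frutescens fruit 2 of 3 were, beside backgrounds of 32.8% and 54.5%. None had an unadjusted p under 0.05 in the fit, where miR398 stood at 1.78 (SE 1.48, edgeR, Benjamini-Hochberg adjusted p = 0.556) and miR408 at 0.92 (SE 1.14, adjusted p = 0.715). Without C. frutescens fruit the fitted value of miR398 was 1.12. That of miR408 was 0.54 without C. chinense fruit and 0.46 without C. chinense flower.

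The entries of miR408 differed in name between libraries. smo-miR408 had 120 reads in C. chinense fruit and 62 in its flower, but 2 in C. frutescens fruit and 72 in its flower. In C. frutescens fruit 66.8% of the miR408 reads stood under ppt-miR408b, with 495 reads. Entries named for the 5p arm had 239 reads in C. frutescens fruit and 5 in its flower, and 11 in C. chinense fruit and 1 in its flower. The entry with most reads in each library printed the same run, in capitals.
smo-miR408 in C. chinense fruit: UGCACUGCCUCUUCCCUGGCUuuu
smo-miR408 in C. chinense flower: UGCACUGCCUCUUCCCUGGCUcuc
ppt-miR408b in C. frutescens fruit: UGCACUGCCUCUUCCCUGGCUccu
smo-miR408 in C. frutescens flower: cUGCACUGCCUCUUCCCUGGCUcc
In miR398, gma-miR398c had 40 reads in C. chinense fruit and 8 in its flower, a ratio of 8.80, and its ratio in C. frutescens was 22.3. A second entry, sbi-miR398, had 41 reads in C. chinense fruit and 20 in its flower, and none in either C. frutescens library. The entry zma-miR398b-5p lay the other way in C. frutescens, 15.3-fold lower in fruit.

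The other same-way families that lay higher in fruit had fewer reads or a smaller ratio. miR827, which acts in phosphate homeostasis, had 7 reads in C. chinense fruit and 1 in its flower, a ratio of 12.3 (interval 1.58 to 555), and 597 in C. frutescens fruit and 2 in its flower, a ratio of 131 (36.2 to 1088). In C. frutescens fruit 390 of the miR827 reads stood under the 5p entry stu-miR827-5p and 205 under nta-miR827. The C. chinense flower read of miR827 stood under another entry, gra-miR827b. miR1446 had 20 reads in C. chinense fruit and 1 in its flower, a ratio of 35.2 (5.63 to 1458), and 114 in C. frutescens fruit and 4 in its flower, a ratio of 12.5 (4.77 to 46.8). With 1 to 4 flower reads the size of these ratios is poorly known. miR6027, a family first described in Solanaceae, had 219 reads in C. chinense fruit and 192 in its flower, a ratio of 2.01 (1.65 to 2.45), at the edge of the 2-fold limit, and a share of 0.399% in C. frutescens fruit and 0.0385% in its flower, a ratio of 10.4 (8.84 to 12.2). The fitted log2 differences were 4.93 for miR827 (SE 1.60, edgeR, Benjamini-Hochberg adjusted p = 0.326), 3.22 for miR1446 (SE 1.39, adjusted p = 0.426) and 1.14 for miR6027 (SE 1.28, adjusted p = 0.685). That of miR1446 was 2.14 without C. chinense fruit. That of miR6027 was 0.68 without C. frutescens fruit and 0.46 without C. frutescens flower.

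**Figure D3:**
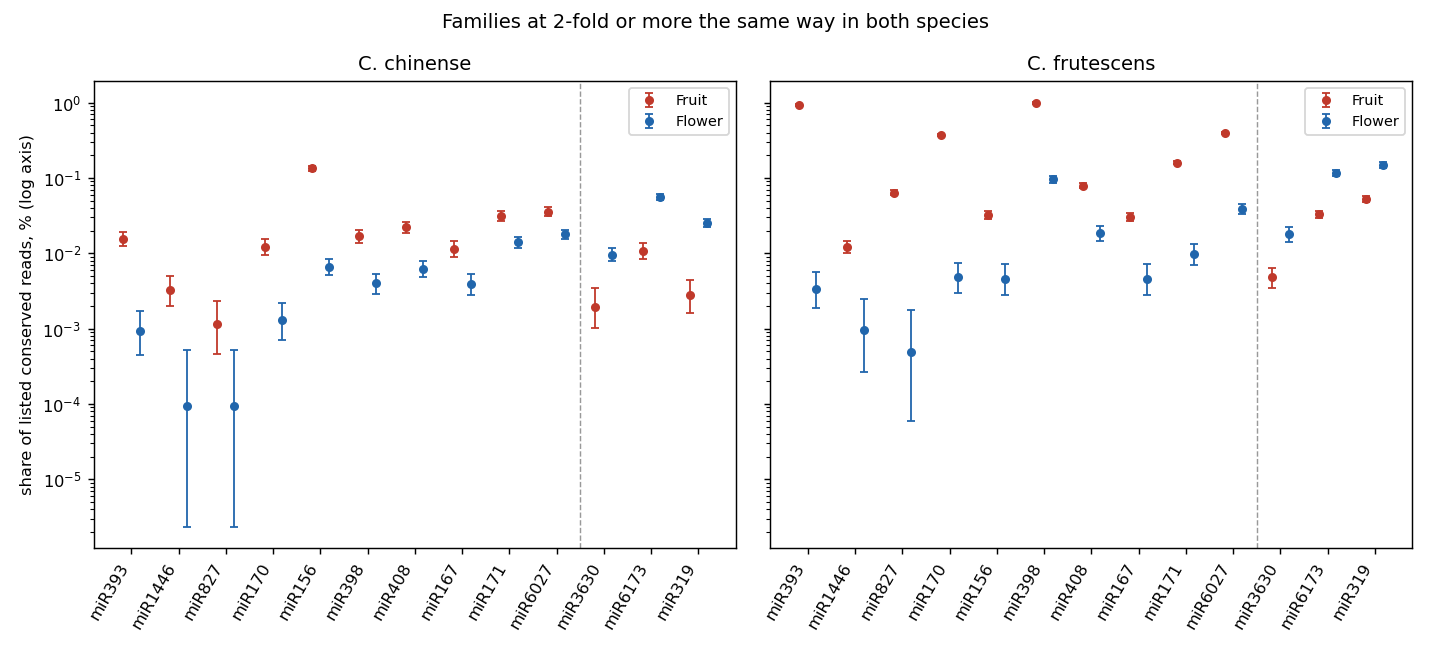
Points give the share of listed reads (%, log axis) of the 13 same-way families in fruit (red, left) and flower (blue, right) of each species, with exact 95% binomial intervals that cover counting error alone; the dashed line parts the 10 families higher in fruit from the 3 lower. Intervals are widest for miR1446 and miR827, which had 1 read each in C. chinense flower.

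Lower in fruit in both species were miR319, miR3630 and miR6173. miR319 had 17 reads in C. chinense fruit and 276 in its flower, which was 9.23-fold lower in fruit (interval 5.66 to 16.1), and 495 in C. frutescens fruit and 615 in its flower, 2.82-fold lower in fruit (2.50 to 3.18). Its entry ppt-miR319d-3p, printed above, had 6 reads in C. chinense fruit and 100 in its flower, and 299 in C. frutescens fruit and 564 in its flower. In C. chinense flower the entry with most reads was smo-miR319, with 135 reads against 0 in C. chinense fruit, and it had 1 read in C. frutescens fruit and 0 in its flower. The sequence it prints there shares a run of only 4 nt with those of ppt-miR319d-3p, so 48.9% of the C. chinense flower reads of the family stand under an unlike sequence. The entry vun-miR319b had 131 reads in C. frutescens fruit and 2 in its flower, against the direction of the family. The fitted log2 difference of miR319 was -3.34 (SE 1.46, edgeR, Benjamini-Hochberg adjusted p = 0.426). Without miR166 in the total, the log2 ratio in C. frutescens was -0.95, just short of 2-fold.

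miR3630 had 12 reads in C. chinense fruit and 104 in its flower, 4.93-fold lower in fruit (interval 2.70 to 9.84), and 45 in C. frutescens fruit and 74 in its flower, 3.74-fold lower in fruit (2.54 to 5.54). Its 2 entries with 10 or more reads carried the difference in 1 species each. vvi-miR3630-3p had 7 reads in C. chinense fruit and 95 in its flower, with a share ratio of 0.130, and 37 in C. frutescens fruit and 21 in its flower, with a share ratio of 0.776. han-miR3630-3p had 5 reads in C. chinense fruit and 9 in its flower, with a share ratio of 0.977, and 7 in C. frutescens fruit and 52 in its flower, 16.9-fold lower in fruit. miR6173, which can hold rRNA fragments, had 66 reads in C. chinense fruit and 605 in its flower, 5.21-fold lower in fruit (4.04 to 6.82), and 309 in C. frutescens fruit and 484 in its flower, 3.56-fold lower in fruit (3.08 to 4.12). The fitted log2 differences were -3.18 for miR3630 (SE 1.13, edgeR, Benjamini-Hochberg adjusted p = 0.326) and -3.16 for miR6173 (SE 1.27, adjusted p = 0.410).

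The scaling of the libraries decided part of this list. TMM, which sets the totals so that most families do not differ, lowered the log2 ratios by 0.93 in C. chinense and 1.15 in C. frutescens, since both fruit libraries received larger factors than their flower libraries. Under shares with miR166, shares without miR166 and TMM alike, 6 families (miR156, miR393, miR170, miR398, miR827 and miR1446) stayed at 2-fold or more higher in both fruits, and 2 (miR3630 and miR6173) at 2-fold or more lower. Without miR166 the count was 9 higher (15.8%) and 2 lower (3.51%) of 57, with miR6300 and miR8155 joining miR408 and the 6. With TMM it was 6 higher (10.3%) and 6 lower (10.3%) of 58, with miR165, miR394 and miR4376 joining the lower ones. Leaving out miR166 turned the sign of 7 families in C. chinense, miR482, miR396, miR8175 and miR2275 among them, and of 2 in C. frutescens.

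**Figure D4:**
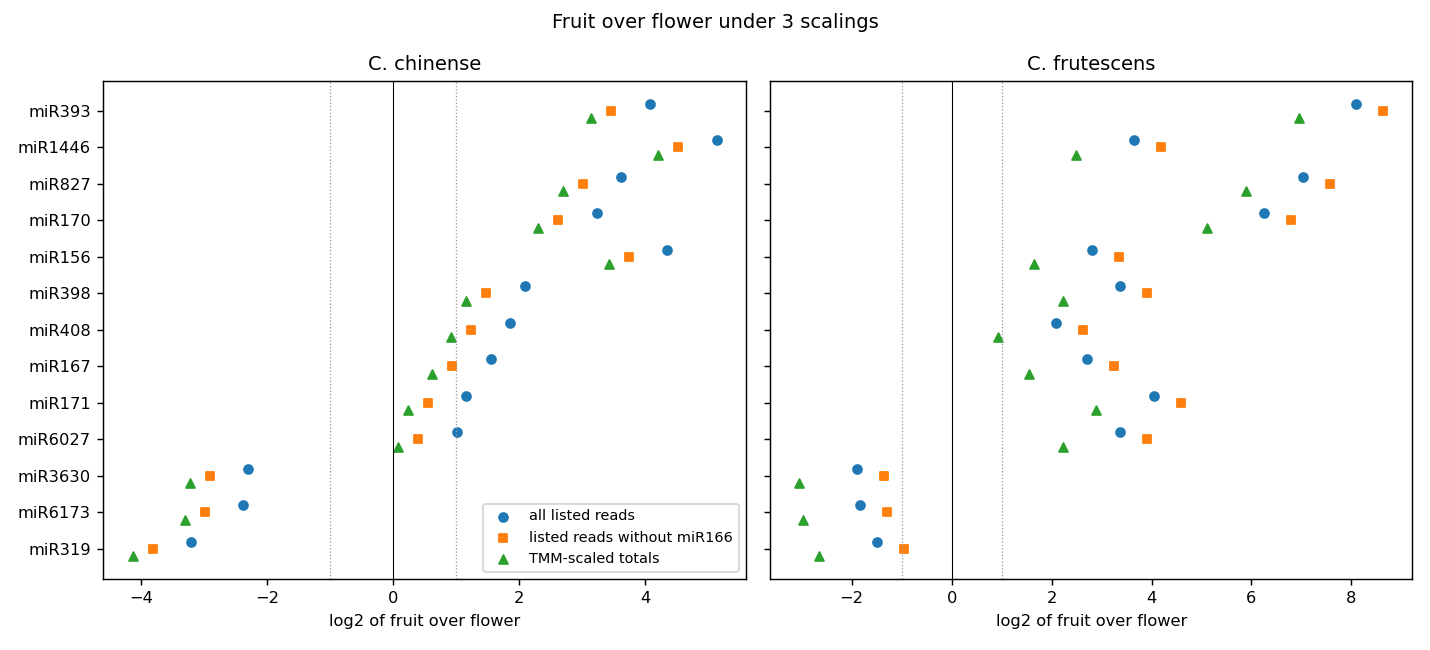
The log2 of fruit over flower for the 13 same-way families in each species under 3 scalings: all listed reads (circles), listed reads without miR166 (squares) and TMM-scaled totals (triangles); dotted lines mark 2-fold. Within a species each scaling shifts all families alike, by -0.62 and -0.93 in C. chinense, so miR408, miR167, miR171 and miR6027 fall below 2-fold there under TMM.

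Grouped by textbook role, the lists held families on either side. Of the 16 measured development and transcription factor families, of 17 in the list, 7 were at 2-fold or more higher and 2 lower in C. chinense fruit, and 10 higher and 1 lower in C. frutescens fruit, with median log2 ratios of 0.89 and 2.32 beside 0.58 and 1.37 for all families. Over all families 32.8% were higher and 15.5% lower in C. chinense fruit, and 54.5% higher and 19.7% lower in C. frutescens fruit, so 10 of 16 lies near its background. In both species 5 of these 16 were higher (miR156, miR167, miR170, miR171 and miR393) and 1 lower (miR319), beside 17.5% and 5.26% of the 57 families with a ratio in both. The 4 auxin families had median log2 ratios of 1.76 for C. chinense and 2.73 for C. frutescens. miR390, the trigger of TAS3 tasiRNAs, had ratios of 1.80 and 6.72, and miR160, which targets other auxin response factors, of 3.90 in C. chinense (671 reads in fruit and 303 in flower) and 0.654 in C. frutescens (1103 in fruit and 742 in flower).

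Of the 4 measured phase change and flowering families, of 5 in the list, miR156 was higher and miR319 lower in both fruits. miR172, which targets AP2-type genes of flower identity, had 7 reads in C. chinense fruit and 17 in its flower, a ratio whose interval (0.254 to 1.84) spans 1, and 52 in C. frutescens fruit and 6 in its flower, a ratio of 3.82 (1.64 to 10.9). miR156 and miR172 are known to succeed each other during phase change, and here both had ratios above 1 in C. frutescens.

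In the small RNA pathway list, miR168 was higher in both fruits, while miR162 and miR403 had opposite signs in the species, a difference that was not tested. miR168, which targets AGO1, had ratios of 1.87 in C. chinense (interval 1.61 to 2.16) and 2.89 in C. frutescens (2.74 to 3.05), with a C. chinense log2 ratio of -0.03 under TMM and -0.76 with entries of 18 to 24 nt. With those short entries alone the log2 ratios of miR162 were 4.01 and 3.36 in C. chinense and C. frutescens. The C. chinense value covers 853 reads in fruit and 61 in flower. It leaves out the 3382 flower reads of bdi-miR162, and the 2015 fruit and 3502 flower reads of ath-miR162b-3p. The sequences printed for these lie outside 18 to 24 nt. With all lengths bdi-miR162 was 2.40-fold lower in C. chinense fruit, where it had 801 reads. The share ratio of ath-miR162b-3p was 1.01 in C. chinense. miR403, which targets AGO2, had 25 reads in C. chinense fruit and 80 in its flower, a ratio of 0.550 (0.336 to 0.871), and 3086 in C. frutescens fruit and 6 in its flower, a ratio of 226 (104 to 617). The list's median log2 ratio was -0.46 in C. chinense and 6.52 in C. frutescens. All 3 of its members were at 2-fold or more higher in C. frutescens fruit and none in C. chinense fruit, beside backgrounds of 54.5% and 32.8%. The MYB-targeting miR858 was alike in this, with 6 reads in C. chinense fruit and 15 in its flower, and 1514 in C. frutescens fruit and 2 in its flower.

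Among the 11 measured resistance gene and Solanaceae families, of 17 in the list, 3 of 10 with a ratio were at 2-fold or more higher and 1 lower in C. chinense fruit, and 7 of 11 higher and 0 lower in C. frutescens fruit, with medians of 0.29 and 3.37. The higher counts lie near the 32.8% and 54.5% of all families. miR6027 and miR1446 were higher in both. miR5300, a tomato relative of miR482, had a ratio of 0.853 for C. chinense and of 2.05 for C. frutescens, where its log2 ratio was -0.11 with TMM. miR6023 had 0 reads in C. chinense fruit and 4 in its flower, but 3514 in C. frutescens fruit and 1 in its flower. In the sulfate and phosphate list miR399 had 2 reads in C. chinense fruit and 6 in its flower, and 51 in C. frutescens fruit and 4 in its flower.

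The 8 families that can hold pieces of rRNA or tRNA together took 1.49% of reads in C. chinense fruit and 0.561% in its flower, and 9.08% in C. frutescens fruit and 9.98% in its flower. Of these families 1 of 6 was at 2-fold or more higher and 2 lower in C. chinense fruit, and 2 of 8 higher and 5 lower in C. frutescens fruit, beside 32.8% higher and 15.5% lower, and 54.5% higher and 19.7% lower, over all families. miR6300 led, with 1.23% in C. chinense fruit and 0.330% in its flower, and 8.07% in C. frutescens fruit and 4.14% in its flower. Its log2 ratio was 1.90 in C. chinense and 0.96 in C. frutescens. miR8175 and miR5368 stood near 1 or above in C. chinense, with ratios of 1.16 and 1.78, and below 1 in C. frutescens, with 0.165 and 0.232. The part of RNA breakdown in these values was not tested.

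The 4 families at 2-fold or more in opposite directions were miR5083, miR6478, miR3979 and miR6485. miR5083 had 632 reads in C. chinense fruit and 272 in its flower, a ratio of 4.09 (interval 3.54 to 4.73), and 241 in C. frutescens fruit and 832 in its flower, 7.84-fold lower in fruit. The same 36-nt sequence was printed for it in all 4 libraries. miR6478, a fragment entry, had 10 reads in C. chinense fruit and 52 in its flower, 2.96-fold lower in fruit, and 318 in C. frutescens fruit and 20 in its flower, a log2 ratio of 2.81. For miR3979 and miR6485 the interval in C. chinense spanned 1, with 1 read and 2 reads in fruit against 5 and 8 in flower. The difference between the species was not tested for these families, since each ratio comes from 1 library a side.

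The stem and leaf libraries, which the ratios did not use, place these families among all organs. The choice of the 10 families fixed that fruit lay above flower, so only stem and leaf add to it, as a description. The fruit share was also above stem and leaf for 4 of them in C. chinense (miR156, miR393, miR827 and miR1446) and for 9 in C. frutescens, all but miR156. Over all 67 families, fruit had the highest share of the 4 organs for 13 in C. chinense and for 34 in C. frutescens. For miR156 the reads in stem were 212 in C. chinense and 437 in C. frutescens, and those in leaf 34 and 10. miR319, chosen as lower in fruit, had its highest share in stem in C. frutescens, with 2936 reads.

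The lengths of the printed sequences also differed between fruit and flower. Without miR166, entries of 24 nt took 2.46% of reads in C. chinense fruit and 2.36% in its flower, but 23.1% in C. frutescens fruit and 0.795% in its flower. Entries of 33 to 36 nt took 30.1% in C. chinense fruit and 14.3% in its flower, and 23.1% in C. frutescens fruit and 61.4% in its flower. Entries over 24 nt, longer than a usual mature miRNA, held 97.0% of all listed reads in C. chinense fruit and 98.1% in its flower, and 85.9% in C. frutescens fruit and 96.2% in its flower. These lengths are of the 1 sequence printed per entry, not of every read counted under it. Restricted to entries that print 18 to 24 nt, the log2 ratios of miR393 were 4.47 in C. chinense and 1.84 in C. frutescens, those of miR156 were 2.66 and 0.92, those of miR170 were 2.63 and 4.37, those of miR398 were 1.54 and 2.25, and those of miR319 were -3.90 and -3.38. No such ratio could be formed for miR1446, miR3630, miR6173 or miR6027, which had 0 or 1 read under such entries in each library. Of these, miR1446, miR3630 and miR6173 are among the families that held under all 3 scalings.

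**Figure D5:**
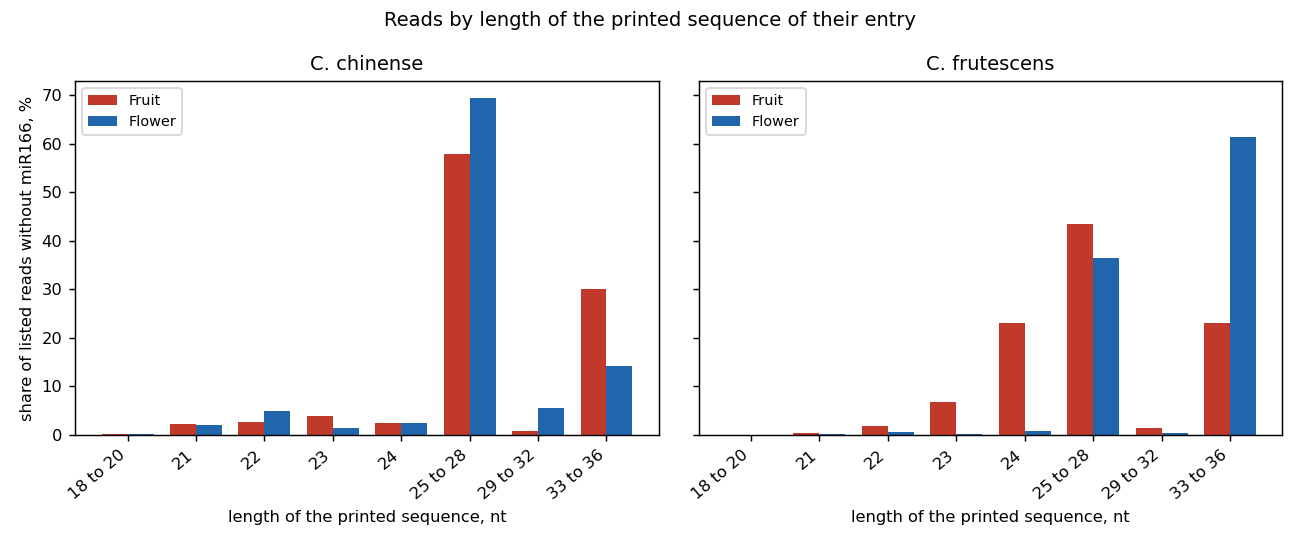
Bars give the share of listed reads without miR166 (%) by the length in nt of the sequence printed for their entry, in fruit (red, left) and flower (blue, right) of each species. C. frutescens fruit holds 23.1% at 24 nt where its flower holds 0.795%, and the flower holds 61.4% at 33 to 36 nt.

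The families at the edge of the read limit were miR3979 with 50 reads and miR6485 and miR5077 with 54 each just inside, and miR8021 with 44 and miR1863 with 39 just outside.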

How the data were processed

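Small RNA of stem, flower, fruit and leaf was sequenced in 2 pepper species, 1 library each; per the labels' protocols, RNA was pooled from 3 biological replicates and libraries were made with a TruSeq small RNA kit and read on an Illumina Genome Analyser II. The authors deposited raw read counts per miRNA entry, per the file headers, in 8 sheets of conserved and 8 of predicted miRNAs. The trimming, alignment, database release and prediction tool were not given in the sources used here. Entries absent from a sheet were taken as 0 reads, and the number of reads sequenced is unknown.

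Reads were summed by miR number with Python 3.11.15 and pandas 2.3.3. Ratios of shares, fruit over flower, have exact 95% counting intervals (scipy 1.17.1). Without molecular identifiers, such intervals and the floor cover counting error only. The test was edgeR 4.0.16 in R 4.3.3 (quasi-likelihood, TMM, tissue plus species, 8 libraries, families with 50 or more reads over the 8 libraries, Benjamini-Hochberg threshold 0.05), with 3 residual degrees of freedom, left by how the species differ from tissue to tissue. The fit was tested on simulated counts with the same dispersion for every family and no species difference. These settings were not taken from the data, so the simulation does not give the error rate here. Alternatives were DESeq2 1.42.0, limma-voom (limma 3.58.1), other scalings, filters and entry lengths, and each library left out.

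Named families were the 10 with the highest mean share, the same-way and opposite families at 2-fold, up to 4 of each list by mean share, any family called, and 4 whose sign turned without miR166. miR8036, miR6025, miR8021, miR1863, miR5077, miR2916, miR5139, miR8155, miR165, miR394 and miR4376 were named after their values were seen. The members and lists were chosen with earlier results of these data known.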

Additional observations from a re-analysis of the deposited data

Results flagged for a closer look

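Some families pointed opposite ways in the 2 species beyond counting error under shares with miR166, without it and with TMM; the difference between the species was not tested. The log2 ratio of fruit over flower was -0.46 in C. chinense and 6.52 in C. frutescens for miR162. With entries of 18 to 24 nt alone the C. chinense value of miR162 was 4.01, from 853 fruit and 61 flower reads. That value leaves out the flower reads of bdi-miR162 and all C. chinense fruit and flower reads of ath-miR162b-3p, the entry with most reads in each. The log2 ratio was -0.86 and 7.82 for miR403, the AGO2-targeting family. It was 2.03 and -2.97 for miR5083, and -1.56 and 2.81 for miR6478.

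In the sheets of predicted miRNAs, which the comparison did not use, the sequence with most reads in C. chinense flower was listed in both flower libraries, with 3010 reads in that library and 1027 in C. frutescens flower. C. frutescens fruit listed it with 1 more base at its 3′ end, in lower case, with 4331 reads, and C. chinense fruit listed no sequence that contains it.
Cap-m0356-3p in C. chinense flower: AUCUUGCCGAUUCCGUCCAUACCGC
Cap-m0550-3p in C. frutescens fruit: AUCUUGCCGAUUCCGUCCAUACCGCu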

How the results depend on the processing

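Of the counts at 2-fold, TMM gave 6 higher, 6 lower and 12 opposite of 58 families. Entries of 18 to 24 nt alone gave 5, 5 and 10 of 41, and a 4-fold limit 6, 0 and 1 of 57. The opposite count was also 10 of 57 without miR166, 2 of 41 with a minimum of 200 reads, and 7 of 57 without miR3711, an alternative chosen after seeing the data. The count with the same sign was 28 of 57 in the main setting and 20 of 41 with entries of 18 to 24 nt. It was 22 of 41 with a minimum of 200 reads and 36 of 71 with a minimum of 20. As a count it stayed within 1.5 times of 28 under every setting run, though the number of families differed between settings. Of values at 2-fold or more, those of miR167 turned with entries of 18 to 24 nt (log2 -2.60 in C. chinense, -1.98 in C. frutescens and -2.59 fitted), as did miR5300 in C. frutescens (-0.11 with TMM). With 18 to 24 nt miR5300 had 0 reads in C. frutescens fruit, since its entry prints a longer sequence there, and a log2 ratio of at most -9.70 against the floor. Smaller ratios turned too: with 18 to 24 nt miR162 in C. chinense (4.01), miR166 (-2.84) and miR482 (2.09) in C. frutescens, and with TMM miR166 in C. frutescens (-0.64) and miR396 in C. chinense (-0.85), among others. The cause of the TMM turns is the shift of all ratios by that scaling. DESeq2 called 9 families where edgeR called 0, and the fit gave 0 to 14 calls when 1 library was left out. The fit without the species term (no replicate block) called 0 families. Each species and tissue has 1 library, so species is the pairing used.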

Other observations

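The predicted miRNAs of fruit and flower had few sequences in common when matched exactly over their whole length. C. chinense fruit listed 307 predicted sequences and its flower 812, of which 15 were shared (4.89% of the fruit list and 1.85% of the flower list). C. frutescens fruit listed 1227 and its flower 136, of which 5 were shared (0.407% and 3.68%). Both fruits shared 4 (1.30% of the C. chinense list and 0.326% of the C. frutescens list) and both flowers 3 (0.369% and 2.21%). All 4 shared by the fruits stood in no flower sheet. Of these the one with most fruit reads had 112 reads in C. chinense fruit and 3 in C. frutescens fruit, and also 155 in C. frutescens stem. Another had 19 and 33 reads in C. chinense and C. frutescens fruit, and between 17 and 136 reads in the 4 stem and leaf libraries. The 3 shared by the flowers stood in no fruit sheet as exact matches, though C. frutescens fruit listed 1 of them with 1 more base and 4331 reads.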
